A study of Mus musculus with 12 samples.

Results

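Toll-like receptors and their co-receptors were followed across 4 mouse acute myeloid leukaemia (AML) cell lines derived from BXH-2 mice. The 10 genes were Tlr1, Tlr2, Tlr4, Tlr6, Tlr7, Tlr9, Tlr13, Cd14, Ly96 and Myd88, and each probe set annotated to one of them was taken. They had 15 probe sets among the 45037 tested, and 10 of the 18193 genes that a probe set named alone. Tlr4 had 4 probe sets, Tlr7 had 3 and each other gene had a single one, and none of the 15 was shared with another gene. B140H and B117H were lines highly resistant to cytarabine (Ara-C), a nucleoside drug of AML treatment, and B140P and B117P were the Ara-C-sensitive parental lines from which they were derived. Each line had 3 arrays of total RNA, lettered A, B and C, and since no label tells whether separate cultures were used, a p-value here speaks only for the spread among these arrays, which may be technical. The same protocol text, passage without the drug and exposure to rising Ara-C, stands with parental and resistant samples alike. Each resistant line is a single derived line of its lineage, so that a difference between resistant and parental cells is a difference between these cultures.

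Toll-like receptors are membrane proteins that bind molecules of microbes and start inflammatory signalling in macrophages, dendritic cells and other immune cells. Tlr1, Tlr2, Tlr4 and Tlr6 act at the cell surface, where Tlr2 pairs with Tlr1 or Tlr6 to bind bacterial lipopeptides and Tlr4, with Ly96 (MD-2) and Cd14, binds bacterial lipopolysaccharide. Tlr7, Tlr9 and Tlr13 act in endosomes and bind single-stranded RNA, unmethylated CpG DNA and bacterial ribosomal RNA. Myd88 is the adaptor that all of these receptors use.

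Levels are probe-set intensities on a linear scale, and differences are in log2(intensity + 1). A gene was represented by its brightest probe set, a difference was called where limma's adjusted p over all 45037 probe sets was below 0.05, and levels of different probe sets were not compared. The array medians lay between 118 and 131, and B140H array B stood apart with the highest median and a lower quartile of 58.6, against 50.8 to 53.7 on the other arrays. Arrays of a line correlated at 0.988 to 0.997, and no pair of arrays from different lineages correlated above 0.967.

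Most measured myeloid markers were lower in the B140 than in the B117 lines, but several stayed bright. Of 14, 11 were lower in B140P than in B117P and 1 was higher, where 11.8% of all genes were lower. Against B117H, 10 were lower in B140H and 1 was higher, where 13.7% of all genes were lower. The higher one was Cd33, by 2.80 log2 in B140P and 1.54 in B140H. The summed intensity of the list was 19845 to 21516 in B140H, 21815 to 25127 in B140P, 55545 to 59596 in B117H and 70194 to 77658 in B117P. Prtn3 was at 12.08 log2 in both B140 lines, and Cebpa at 10.39 in B140H and 10.03 in B140P. Csf1r was at 10.38 in B140H and 10.46 in B140P. Spi1, the PU.1 transcription factor gene, was at 11.38 log2 in B140H, 11.31 in B140P, 11.19 in B117H and 11.52 in B117P, and was not called in any comparison of lines. Mpo, the myeloperoxidase gene, was at 7.13 log2 in B140H and 9.54 in B140P, against 14.04 in B117H and 14.62 in B117P. The progenitor markers Kit and Cd34 lay below the median probe set of 6.95 log2 in both B140 lines. Of the 4 measured B cell markers, Cd79a and Cd79b were higher in each B140 line than in its B117 counterpart, and the list summed to 3372 to 4137 in B140H, 2108 to 2677 in B140P, 371 to 405 in B117H and 406 to 472 in B117P. No T cell, erythroid or endothelial marker was called in any of the 4 comparisons of lines, which called 6.56% to 27.0% of all genes.

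Cd14, the surface protein that hands lipopolysaccharide to Tlr4, varied most among the 10 genes, with line means spanning 4.33 log2 units. Its intensity was 109.9, 158 and 83.3 in B140H, 236, 149 and 171 in B140P, 1243, 898 and 1475 in B117H and 1983, 2312 and 2607 in B117P. Every B140 array lay below every B117 array, the B117H arrays lay below the B117P arrays, and the B140H and B140P arrays overlapped. In log2 units the means were 6.83 ± 0.46 in B140H, 7.52 ± 0.33 in B140P, 10.21 ± 0.36 in B117H and 11.16 ± 0.20 in B117P (SD, n = 3 each).

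Tlr4, the lipopolysaccharide receptor itself, gave 44.4, 66.5 and 59.4 in B140H, 49.5, 59.1 and 54.1 in B140P, 101, 114 and 115 in B117H and 143, 131 and 126 in B117P on its brightest probe set. The order of lines was the order of Cd14 at its upper end, with B117H below B117P and the B140 arrays below both, but B140H and B140P overlapped again. A second Tlr4 probe set, 1418162_at, was dim, with all line means below the median probe set, and gave 28.6, 23.0 and 20.9 in B140H, 20.5, 21.2 and 22.7 in B140P, 70.3, 72.0 and 77.6 in B117H and 109, 106 and 81.0 in B117P. The other two, 1430695_at and 1442827_at, were dim as well, and 1430695_at showed no separation of the lineages.

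Ly96, the secreted partner that completes the lipopolysaccharide receptor, differed little between lines. It gave 352, 307 and 378 in B140H, 357, 384 and 382 in B140P, 361, 292 and 292 in B117H and 350.3, 460.2 and 412 in B117P. The arrays of neighbouring lines overlapped throughout, and its line means spanned 0.37 log2 units.

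Tlr2, the shared partner of the lipopeptide receptors, gave 240.1, 241 and 226 in B140H, 205, 192 and 202 in B140P, 345, 329 and 368 in B117H and 446, 414 and 464 in B117P. No 2 lines overlapped, and the order from low to high was B140P, B140H, B117H and B117P. The resistant line was thus the higher of its pair in the B140 lineage and the lower of its pair in the B117 lineage.

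Tlr1, the partner of Tlr2 for triacylated lipopeptides, had a dim probe set, whose line means all lay below the median probe set. It gave 34.1, 34.3 and 24.7 in B140H, 20.2, 24.5 and 24.3 in B140P, 20.4, 23.9 and 24.3 in B117H and 35.7, 38.7 and 32.4 in B117P. B140H and B117P were the higher lines, except that B140H array C, at 24.7, lay just above the highest B140P array at 24.5. Tlr6, the neighbouring gene of Tlr1 in the genome and the partner of Tlr2 for diacylated lipopeptides, gave 115, 132 and 125 in B140H, 133, 139 and 137 in B140P, 149, 152 and 201 in B117H and 123, 175 and 149.9 in B117P. Every B140H array lay below every B140P array and every B117H array, while both B117 lines spread widely and overlapped.

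The sequences before the annotated starts of Tlr2, Tlr1 and Myd88 are shown because these genes, besides Cd14, were the ones called between B117H and B117P. They are RefSeq's, from GRCm38.p6, on the minus strand, each of 250 bases ending at the base before the start. Of the 10 genes, 6 had such an entry among those used, with 8 windows in all. Entries on the chromosome of Cd14 were left out of this count, so it does not tell whether Cd14 has one. Capitals mark matches to any of 4 motifs searched on both strands: NF-kB's consensus, the PU.1 core GAGGAA, the C/EBP core TTGCNNAA and the interferon response element (GAAA, 2 bases of any kind, GAAA). The Tlr2 window (chr3:83841609-83841858) held overlapping NF-kB matches from 173 to 163 bases before the start. Of the Tlr1 windows, chr5:64932700-64932949 held none and chr5:64933559-64933808 held the PU.1 core 23 to 18 bases before the start. The Myd88 window (chr9:119340019-119340268) held the interferon response element 40 to 31 bases before the start.
Tlr2: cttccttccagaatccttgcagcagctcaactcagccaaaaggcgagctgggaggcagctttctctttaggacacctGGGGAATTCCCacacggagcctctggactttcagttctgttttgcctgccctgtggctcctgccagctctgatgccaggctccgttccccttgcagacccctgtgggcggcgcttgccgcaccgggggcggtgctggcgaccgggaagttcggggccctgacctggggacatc
Tlr1, first window: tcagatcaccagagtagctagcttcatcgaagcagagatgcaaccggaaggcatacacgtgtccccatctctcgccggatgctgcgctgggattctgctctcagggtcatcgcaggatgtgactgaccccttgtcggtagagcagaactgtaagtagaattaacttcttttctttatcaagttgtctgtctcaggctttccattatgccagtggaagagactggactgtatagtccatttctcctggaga
Tlr1, second window: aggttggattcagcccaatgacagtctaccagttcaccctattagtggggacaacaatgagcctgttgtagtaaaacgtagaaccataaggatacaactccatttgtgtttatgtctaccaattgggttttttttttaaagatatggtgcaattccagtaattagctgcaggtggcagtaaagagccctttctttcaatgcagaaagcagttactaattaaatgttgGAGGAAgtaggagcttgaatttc
Myd88: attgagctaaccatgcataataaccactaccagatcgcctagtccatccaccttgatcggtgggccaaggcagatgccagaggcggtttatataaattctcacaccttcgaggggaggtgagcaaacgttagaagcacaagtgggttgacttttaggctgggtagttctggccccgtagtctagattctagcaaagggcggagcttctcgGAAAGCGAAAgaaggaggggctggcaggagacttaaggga
Among all 32817 windows of this length, 7.25% held an NF-kB match, 23.3% the PU.1 core, 9.57% the C/EBP core and 2.97% the interferon response element. The motif letters are a description of these windows and say nothing of binding in these cells.

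Tlr7, the endosomal receptor for single-stranded RNA, separated the lineages widely. Its brightest probe set gave 78.7, 109.6 and 60.9 in B140H, 64.5, 72.5 and 71.6 in B140P, 268, 266 and 249 in B117H and 301, 249 and 301 in B117P. Every B140 array lay below every B117 array, and the resistant and parental arrays overlapped within both lineages. The other probe sets, 1449640_at and 1419848_x_at, were dimmer and ordered the lineages the same way, with line means of 60.6 and 44.8 in B140H, 58.4 and 45.6 in B140P, 89.1 and 75.3 in B117H, and 125 and 110 in B117P.

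Tlr9, the receptor for CpG DNA, gave 179, 225 and 159.8 in B140H, 136, 172 and 158 in B140P, 175, 171 and 146 in B117H and 162, 157 and 197 in B117P, and all 4 lines overlapped. Tlr13, the receptor for bacterial ribosomal RNA, had a probe set below the median, at 97.2, 98.5 and 91.5 in B140H, 76.6, 64.0 and 78.1 in B140P, 71.8, 67.6 and 81.8 in B117H and 71.4, 80.3 and 89.3 in B117P. B140H was above every other line, and the other 3 lines overlapped. Myd88, the common adaptor, gave 963, 1021 and 1058 in B140H, 929, 1037 and 982 in B140P, 886, 975 and 862 in B117H and 1247, 1095 and 1167 in B117P. B117P was the highest line, with each of its arrays above all others, and the other 3 lines overlapped.

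**Figure D1:**
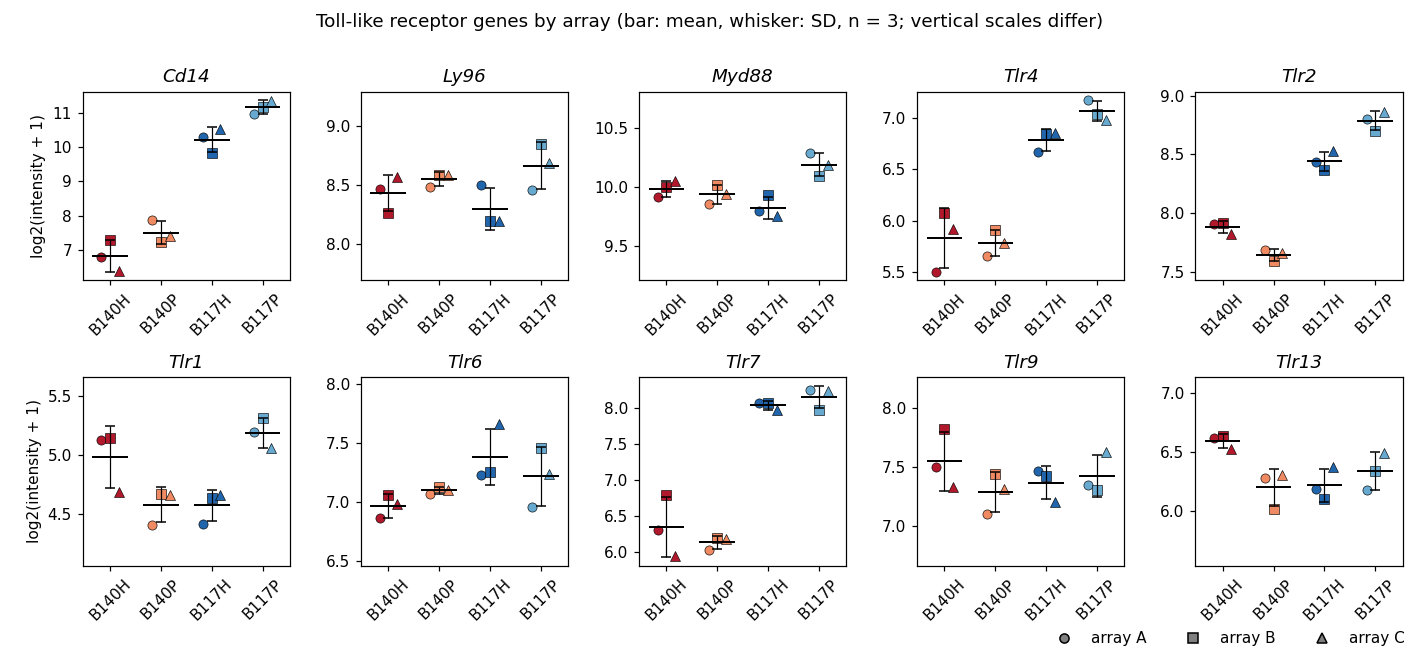
Each panel plots log2(intensity + 1) of a gene's brightest probe set on every array, with lines on the horizontal axis, the bar at the mean, the whisker the SD over 3 arrays and a marker shape for each array letter. Cd14, Tlr4, Tlr2 and Tlr7 stand lower in the B140 lines, while Ly96 and Tlr9 overlap between lines. Vertical scales differ between panels.

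The first comparison asked which of these genes differed between resistant B117H and parental B117P cells. Of the 10 genes, 4 fell and none rose: Cd14, Tlr1, Tlr2 and Myd88. Among all genes, 9.41% were called in this comparison, 4.68% lower and 4.73% higher. Cd14 was 1.94-fold lower in B117H (log2 difference -0.95, SE 0.24, 95% interval -1.47 to -0.43, limma adjusted p 0.0287). Tlr1 was 1.53-fold lower (-0.62, SE 0.14, adjusted p 0.0138), and its probe set is dim. Tlr2 was 1.27-fold lower (-0.35, SE 0.09, adjusted p 0.0273) and Myd88 was 1.29-fold lower (-0.37, SE 0.09, adjusted p 0.0283). In bulk RNA, fewer cells of a type and less RNA per cell cannot be told apart.

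The other 6 genes were not called between B117H and B117P. Ly96 had a difference of -0.37 (adjusted p 0.118) and Tlr4 of -0.28 (95% interval -0.57 to 0.02, adjusted p 0.365), although the B117H arrays lay below the B117P arrays for Tlr4 and 4 other genes. That made 5 of 10 genes with all B117H arrays below, against 12.5% of all genes. The dimmer Tlr7 probe sets had differences of -0.46 and -0.54 (adjusted p 0.21 and 0.0742) while the brightest had -0.12 (adjusted p 0.915). Tlr6, Tlr9 and Tlr13 had differences of 0.16, -0.06 and -0.12. The median of the 10 differences was -0.31, against -0.01 over all genes.

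The 4 calls in B117H rest on the full set of arrays. Without B117H array A none was called, without B117P array C 1 was called, and without B117P array A, B117P array B or B117H array B 2 were called. Cd14 lost its call without B117H array A or B or B117P array B or C (adjusted p 0.0653 to 0.132), and Tlr2 without B117H array A or B or B117P array A or C (0.0719 to 0.122). Myd88 lost its call without B117H array A or C or B117P array A or C (0.0869 to 0.123), and Tlr1 without B117H array A (0.0656) or B117P array B (0.064). The sign of all 4 was the same in each of these fits. Beside these differences, 5 of the 14 myeloid markers were lower in B117H, among them Lyz2 by -1.13 and Elane by -1.63 log2, and none was higher. Of the 11 monocyte and macrophage markers, which summed to 14509 to 17305 in B117H and 16615 to 18082 in B117P, Adgre1 was higher by 1.87 and Lyz2 lower. Itgax, a dendritic cell marker, was higher in B117H by 2.96 (limma adjusted p 5.21e-08), the widest marker difference of this pair. The dendritic list summed to 7769 to 10326 in B117H and 2762 to 3435 in B117P, but of its 6 markers only Itgax was called. Flt3 differed by 0.44 (adjusted p 0.13), and Siglech, Zbtb46, Xcr1 and Ccr7 by 0.02, -0.11, 0.035 and -0.27. Of 9 neutrophil markers, which summed to 2040 to 2550 in B117H and 2626 to 3349 in B117P, Csf3r was lower by -0.58 and the dim S100a8 by -1.83, and none was higher. The B cell marker Cd79b was lower by -0.75 (adjusted p 0.0385) and the fibroblast marker Pdgfrb higher by 1.07 (adjusted p 0.00374). The part of these markers in the result was not tested.

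None of the 10 genes was called between B140H and B140P, a comparison in which limma called 6.56% of all genes (2.81% higher, 3.75% lower). Of the 10, 4 had an unadjusted p below 0.05, but the share of all genes at that threshold was not counted. Tlr13 came nearest, at 1.31-fold higher in B140H (log2 difference 0.39, SE 0.11, 95% interval 0.15 to 0.64, adjusted p 0.0786). From correlated deviations of same-letter arrays, not from any label, the letters were read as pairing the B140H and B140P arrays. With the letter as a block limma called Tlr13 (adjusted p 0.0379), the single gene of the 10, and 1827 genes in place of 1194. Tlr1 had a difference of 0.41 (95% interval 0.11 to 0.70, adjusted p 0.143) and Tlr2 of 0.24 (0.05 to 0.42, adjusted p 0.187). All 3 B140H arrays lay above the B140P arrays for Tlr1, Tlr2 and Tlr13, and 13.7% of all genes did so. Without B140H array C, Tlr1 was called at 0.56 (adjusted p 0.0255).

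Cd14 had a difference of -0.68 between B140H and B140P (95% interval -1.20 to -0.16, adjusted p 0.165), with B140H array B above B140P array B. Tlr9 and Tlr7 had differences of 0.27 and 0.21 (adjusted p 0.447 and 0.643). Tlr4, Myd88, Ly96 and Tlr6 had differences of 0.05, 0.05, -0.12 and -0.13, whose 95% intervals all spanned 0. The median over the 10 genes was 0.13, against 0.05 over all genes.

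**Figure D2:**
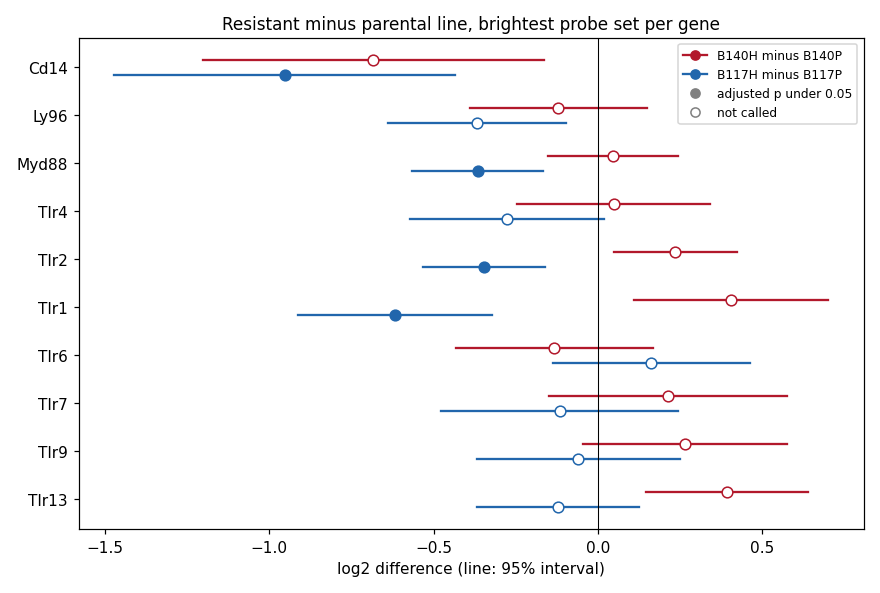
The log2 difference of each gene between the resistant and the parental line is plotted with its 95% interval, B140H minus B140P above and B117H minus B117P below within each gene, and filled points have an adjusted p below 0.05. The 4 filled points are all of the B117 pair, at -0.95 for Cd14, -0.37 for Myd88, -0.35 for Tlr2 and -0.62 for Tlr1.

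Whether resistance went with a different change in the 2 lineages was tested as the change in B140H minus the change in B117H. The difference was called for 2 of the 10 genes, both higher, when 10.4% of all genes were called, 4.91% higher and 5.51% lower. Tlr1 differed by 1.02 log2 (SE 0.19, 95% interval 0.60 to 1.44, limma adjusted p 0.00529), with a change of 0.41 in B140H and -0.62 in B117H. Tlr2 differed by 0.58 (SE 0.12, 95% interval 0.32 to 0.85, adjusted p 0.00991), with changes of 0.24 and -0.35. Both are subunits of the triacyl lipopeptide receptor. The 2 calls held on leaving out any single array, with adjusted p up to 0.0166 for Tlr1 and 0.0336 for Tlr2.

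Tlr13 and Myd88 had differences of 0.51 (adjusted p 0.0795) and 0.41 (adjusted p 0.08) between the changes. With the letter as a block Tlr13 was called in this difference as well (limma adjusted p 0.0404). The letters were not read as pairing B117H with B117P, a reading that rests on their B arrays alone. The remaining 6 genes had adjusted p of 0.442 or more, at differences from -0.30 for Tlr6 to 0.33 for Tlr7. For Cd14 the 2 pairs moved the same way, -0.68 in B140H and -0.95 in B117H, and the changes differed by 0.27 (SE 0.34, adjusted p 0.777). The median over the 10 genes was 0.33, against 0.06 over all genes.

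The widest difference between lineages was -3.64 log2, for Cd14 in the parental lines, against -0.95 for the widest between a resistant line and its parent, again for Cd14. Between the parental lines, 5 of the 10 genes were lower in B140P than in B117P and none was higher, while 23.8% of all genes were called and 11.8% were called lower. Cd14 was 12.5-fold lower in B140P (log2 difference -3.64, SE 0.24, 95% interval -4.16 to -3.13, limma adjusted p 1.51e-07). Tlr7 was 4.03-fold lower (-2.01, SE 0.17, adjusted p 1.45e-06), and its dimmer probe sets gave -1.06 (adjusted p 0.000886) and -1.25 (adjusted p 9.07e-05). Tlr4 was 2.43-fold lower (-1.28, SE 0.14, adjusted p 1.43e-05), with -2.14 on 1418162_at (adjusted p 8.4e-08), -0.51 on 1442827_at (adjusted p 0.0052) and 0.08 on 1430695_at (adjusted p 0.705), all 3 of them dim. Tlr2 was 2.20-fold lower (-1.14, SE 0.09, adjusted p 5.9e-07) and Tlr1 1.52-fold lower (-0.61, SE 0.14, adjusted p 0.00594).

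Ly96, Tlr6, Tlr9 and Tlr13 differed by -0.11, -0.12, -0.14 and -0.14 between B140P and B117P, none of them called, with 95% intervals that lay between -0.45 and 0.18. Myd88 had a difference of -0.25 (adjusted p 0.0851). Over probe sets, 9 of the 15 were lower and none was higher, against 18.0% called of all probe sets. All B140P arrays lay below all B117P arrays for 6 of the 10 genes, against 18.7% of all genes, and the median difference was -0.43, against 0.00 over all genes.

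Between the resistant lines, 4 of the 10 genes were lower and 2 were higher in B140H than in B117H, while 27.0% of all genes were called, 13.7% lower and 13.3% higher. Cd14 was 10.4-fold lower in B140H (log2 difference -3.37, SE 0.24, adjusted p 2.89e-07), Tlr7 3.20-fold lower (-1.68, SE 0.17, adjusted p 6.77e-06), Tlr4 1.94-fold lower (-0.96, SE 0.14, adjusted p 0.000163) and Tlr2 1.47-fold lower (-0.56, SE 0.09, adjusted p 0.000341). These 4 genes were the ones called lower in both comparisons of lineages. Tlr1 was higher in B140H by 0.41 (95% interval 0.12 to 0.71, adjusted p 0.0484), where it was lower in B140P than in B117P. Tlr13 was higher by 0.38 (95% interval 0.13 to 0.62, adjusted p 0.0324).

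The 2 higher calls were the less firm. Without B140H array B, the array that stood apart, Tlr1 and Tlr13 lost their calls (adjusted p 0.157 and 0.0774) and the 4 lower genes kept theirs. Tlr1 was called without B140P array A and without B140H array C, and lost its call on leaving out any other array (adjusted p up to 0.173). Tlr13 also lost its call without B140H array A (0.0807), B117H array A (0.0948) or B117H array B (0.131). Tlr6 had a difference of -0.41 (adjusted p 0.0518), with every B140H array below every B117H array. The letters were read as pairing these lines too, though no label states this. With the letter as a block limma called Tlr6 (adjusted p 0.0189). Tlr9, Ly96 and Myd88 had differences of 0.18, 0.13 and 0.16, not called.

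**Figure D3:**
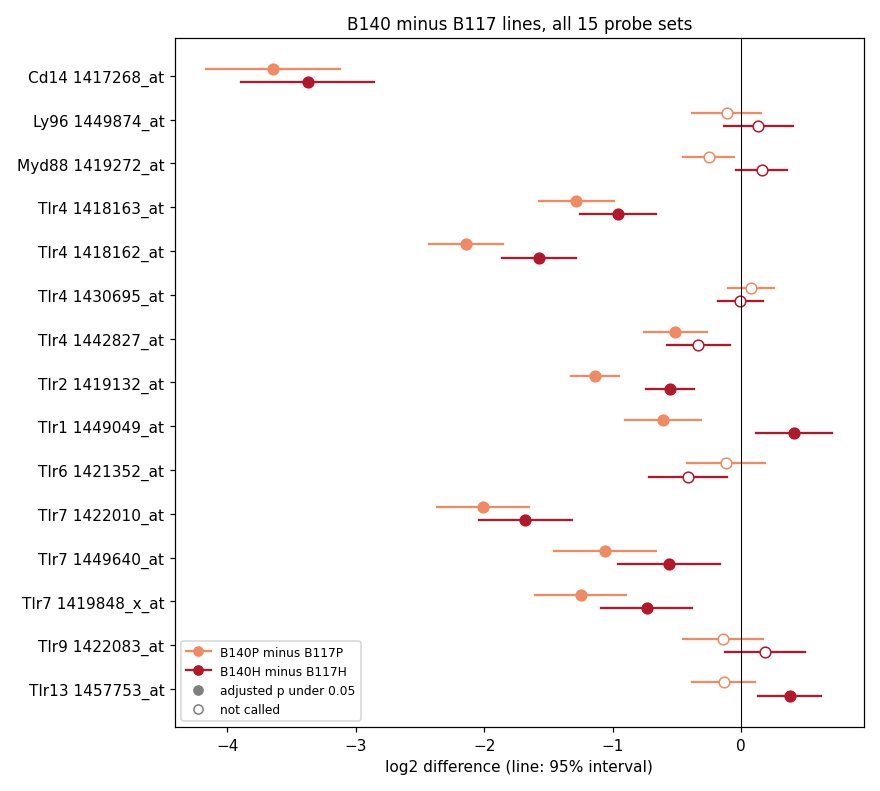
The log2 difference between the B140 and the B117 line is plotted with its 95% interval for each of the 15 probe sets, B140P minus B117P above and B140H minus B117H below within each probe set, and filled points have an adjusted p below 0.05. Cd14 lies at -3.64 and -3.37, the brightest Tlr7 probe set at -2.01 and -1.68, and Tlr1 changes side, at -0.61 and 0.41.

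Most markers of monocytes and macrophages were lower in the B140 lines. Of 11 measured, 7 were lower and none was higher in B140P than in B117P, where 11.8% of all genes were lower. In B140H against B117H, where 13.7% of all genes were lower and 13.3% higher, 6 were lower and 3 higher. The higher ones were Cd68 by 0.82, Fcgr1 by 0.39 and Msr1 by 0.36. The 11 markers had a summed intensity of 4662 to 6418 in B140H and 3345 to 5678 in B140P, against 14509 to 17305 in B117H and 16615 to 18082 in B117P. Only Mertk lay below the median probe set in all 4 lines. Lyz2, the lysozyme gene, was lower by -4.69 in B140P and -3.35 in B140H, and Ccr2, a monocyte chemokine receptor gene, by -4.82 and -4.95. Dendritic cell markers split, with Flt3 and Siglech higher in B140P by 2.34 and 2.45 and Itgax lower by -2.79. Of 9 neutrophil markers, 4 were lower and none was higher in B140P than in B117P, among them Mmp8 by -2.38 and Cxcr2 by -1.99, and 1, Cxcr2, was lower in B140H than in B117H. The neutrophil list summed to 1418 to 2314 in B140H and 989 to 1114 in B140P, against 2040 to 2550 in B117H and 2626 to 3349 in B117P. The part of these markers in the receptor differences was not tested.

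Over the 12 arrays Cd14, Tlr2, Tlr4 and Tlr7 correlated pairwise at r = 0.94 to 0.96, and the points share the lineage split for which these genes were singled out. Within lines, on deviations from the line means, the same pairs ran from -0.17 for Tlr2 and Tlr4 to 0.71 for Tlr2 and Cd14. Among 1679 other genes of at least median intensity whose line means lay at least 1 log2 unit apart, the genes most like Tlr2 were Slc4a8, Amdhd2 and Kif17 (r = 0.99, 0.99 and 0.98). Those most like Tlr4 were Tfpi, Bnip5 and Pstpip2 (r = 0.99, 0.99 and 0.98), and those most like Tlr7 were Pafah1b3, Cd320 and Cntln (r = 0.99 each). Those most like Cd14 were Tbc1d19, Gpc1 and Acsf2 (r = 0.99, 0.98 and 0.98). Slc4a8 had means of 8.46 log2 in B140H, 7.50 in B140P, 9.86 in B117H and 10.58 in B117P, the order of lines that Tlr2 showed.

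The rest of the pathway was read in 6 lists. Of the other Toll-like receptors, Tlr3, Tlr5, Tlr8 and Tlr12 were measured and none was called in any of the 5 comparisons by limma, with 0 unadjusted p below 0.05 in any of them. These comparisons called 6.56% to 27.0% of all genes. Tlr8, the neighbour of Tlr7 in the genome, had a difference of -0.09 between B140P and B117P (95% interval -0.48 to 0.29, adjusted p 0.862), where Tlr7 had -2.01.

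Of 14 chaperones and accessory molecules, 4 were lower and none was higher in B117H than in B117P, or 28.6% called against 9.41% of all genes. Lbp, which carries lipopolysaccharide to Cd14, was lower by -1.07 (SE 0.17, limma adjusted p 0.00164), and Ly86 (MD-1), the partner of Cd180, by -0.87 (SE 0.10, adjusted p 0.000125). The lysosomal protease genes Ctss and Ctsb were lower by -0.60 and -0.47 (adjusted p 0.0138 and 0.0436). In B140H, 1 was higher and 2 were lower than in B140P (21.4%, against 6.56% of all genes): Cnpy4, a chaperone-like gene linked to surface Tlr4, was higher by 0.85 (adjusted p 0.000425), Ctss lower by -0.60 (adjusted p 0.0192) and Ctsl lower by -1.42 on its brightest probe set but not on another (adjusted p 0.999). The Ctsb and Ctss calls rest on single arrays, and that of Ctsl held on leaving out any single array. Ctsb lost its call in B117H without any B117 array, without B140P array B or C or without B140H array C (adjusted p 0.0507 to 0.172). Ctss lost it in B117H without B117H array B or C or B117P array A or C (0.054 to 0.066), and in B140H without B140H array B (0.0705) or B140P array A (0.092).

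The change in B140H minus the change in B117H was called higher for 4 of these 14 genes and lower for 1 (35.7%, against 10.4% of all genes). The lower one was Ctsl, at -1.05 on its brightest probe set (limma adjusted p 0.00555) but -0.0076 on another (adjusted p 0.992). Ly86 differed by 1.18 (adjusted p 0.000246), Cnpy4 by 1.08 (0.000693) and Lbp, at 0.9995, had an adjusted p of 0.0225. Lbp lost this call without B117H array A or B, B117P array B, B140H array A or B, or B140P array C (adjusted p 0.052 to 0.0598). Between the parental lines, 1 was higher and 5 were lower in B140P (42.9%, against 23.8% of all genes). Ctsl, counted there, was lower by -3.26 in B140P and -4.31 in B140H on its brightest probe set. On another it had -0.36 and -0.37, not called (limma adjusted p 0.119 and 0.0961). Unc93b1, which carries the endosomal receptors to endosomes, was lower by -1.17 in B140P (adjusted p 4.24e-06) and by -0.86 in B140H (6.14e-05). Lgmn, a protease that cleaves Tlr9, was lower by -3.09 in B140P and -3.25 in B140H (adjusted p 1.26e-07 and 6.82e-08), and Ctsb was higher by 1.37 and 1.64 (4.39e-06 and 6.83e-07).

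Among 19 measured adaptors and signalling genes, Tirap, the bridging adaptor between Tlr2 or Tlr4 and Myd88, was the single one called between B117H and B117P, lower by -0.87 (SE 0.12, limma adjusted p 0.000669). That is 5.26% of the list, below the 9.41% of all genes. Tirap was also lower in B140H than in B140P, by -0.57 (adjusted p 0.0188), as was Pik3ap1 by -0.49 (0.0255). These 2 are 10.5% of the list, against 6.56% of all genes. Tirap lost that call without B140H array B (0.0697), B140P array A (0.0917) or B140P array B (0.062), and Pik3ap1 without B140H array A or any B140P array (0.0526 to 0.113). In the difference between the changes limma called none of the 19, where 10.4% of all genes were called. An unadjusted p below 0.05 was found for 3, with no share of all genes counted at that threshold. That list had 3 higher and 2 lower in B140P than in B117P, with Ikbke, an interferon-pathway kinase gene, lower by -1.29 (2.84e-05), and 4 higher and 4 lower in B140H than in B117H. These are 26.3% of the list against 23.8% of all genes between the parental lines, a share near the background, and 42.1% against 27.0% between the resistant lines.

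Of 13 transcription factors, 4 were lower in B117H than in B117P and none was higher (30.8%, against 9.41% of all genes). They were Cebpb by -1.54 (adjusted p 0.000219), Irf8 by -1.02 (0.000134), Cebpd by -0.87 (0.000573) and Irf7 by -0.53 (0.0249), the last of which lost its call without B117H array A or B or B117P array A or C (adjusted p 0.0857 to 0.107). In B140H, Irf8, a factor of monocyte and dendritic cell development, rose by 0.76 (0.00201) and Irf3 by 0.44 (0.00927; 0.555 on another probe set), so that the changes of Irf8 differed by 1.79 (SE 0.17, adjusted p 3.47e-05). Between the parental lines 3 were higher and 4 lower in B140P (53.8%, against 23.8% of all genes), with Cebpb higher by 1.83 (1.17e-05) and Cebpd and Cebpa lower by -1.73 and -1.27 (2.94e-07 and 1.02e-06). Between the resistant lines 6 were higher and 2 lower in B140H (61.5%, against 27.0%), with Cebpb higher by 3.38 and Irf8 by 1.62 (3.03e-08 and 3.64e-07).

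None of 12 measured inhibitors was called within either lineage by limma, where 9.41% of all genes were called in B117H and 6.56% in B140H. For 12 genes, none called is near these shares. An unadjusted p below 0.05 was found for 2 in B140H and 2 in B117H, with no share of all genes counted at that threshold. Sigirr, a receptor that restrains Toll-like receptor signalling, was higher by 1.75 in B140P than in B117P and by 1.67 in B140H than in B117H (adjusted p 4.24e-08 and 6.47e-08). The list had 1 higher and 1 lower gene in B140P, and 2 higher and 3 lower in B140H, relative to the B117 lines. These are 16.7% of the list, below the 23.8% of all genes, between the parental lines and 41.7% against 27.0% between the resistant lines.

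Of 25 genes that Toll-like receptor signalling induces, 2 were higher and 3 lower in B117H than in B117P (20.0%, against 9.41% of all genes). Ptgs2 (cyclooxygenase 2) was lower by -2.07 (SE 0.27, adjusted p 0.000389) and Cxcl10, an interferon-induced chemokine gene, by -1.35 (SE 0.16, adjusted p 0.000187). The parental lines had 2 of these genes higher and 5 lower in B140P, or 28.0% called against 23.8% of all genes, a share near the background. Il6 was lower by -3.60 in B140P and -4.25 in B140H (adjusted p 1.07e-09 and 2.38e-10), Ptgs2 by -4.90 and -2.60 (3.03e-08 and 1.16e-05), and Icam1, an adhesion molecule gene, was higher by 1.81 and 0.64 (2.35e-07 and 0.00206). Under the alternatives the Ptgs2 difference ran from -5.19 to -2.98 in B140P and from -2.92 to -1.34 in B140H. That of Il6 ran from -3.77 to -3.08 and from -4.33 to -3.55. Whether the levels of Il6 and Ptgs2 in the B140 lines lay near background was not examined.

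**Figure D4:**
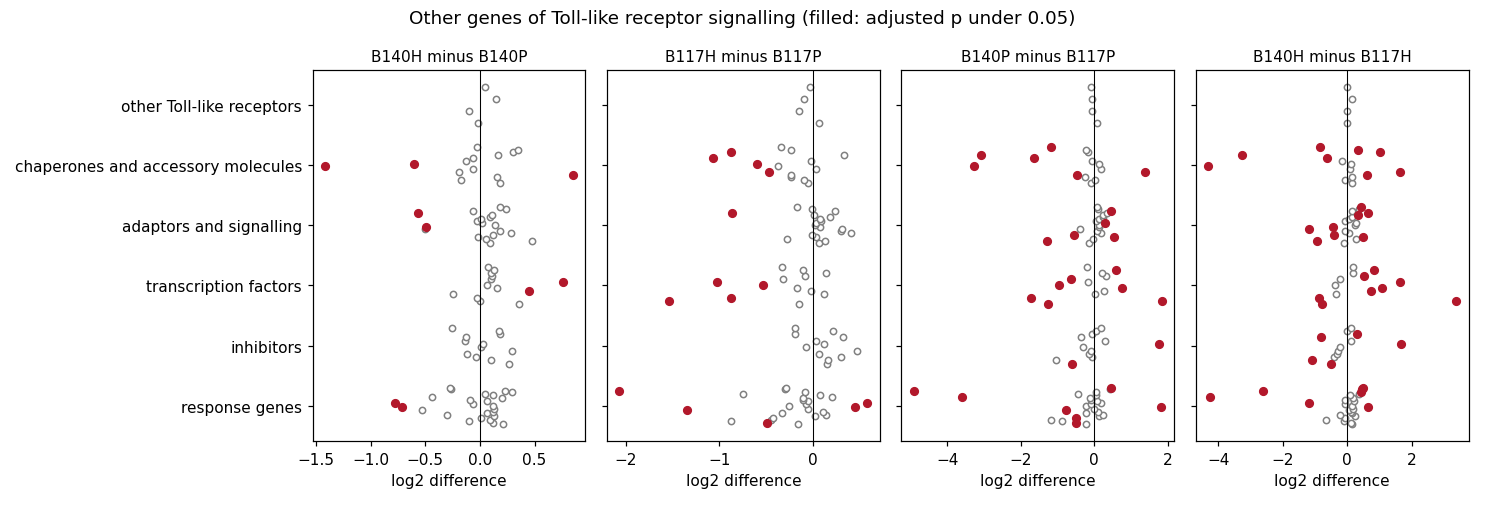
Each point is the log2 difference of a gene in a comparison, by list, and filled points have an adjusted p below 0.05. No other Toll-like receptor is filled in any panel, and the lineage panels, whose horizontal scales are wider, hold the most distant points, Ptgs2 at -4.90 and Il6 at -4.25 among them.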

How the data were processed

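Total RNA of 12 samples, 3 for each of 4 lines, was hybridised to 1-colour arrays. The deposited intensity values were made with RMA, per the submitters' processing notes, whose version and parameters were not given in the sources read here. The values were read as linear from their range, 7.65 to 36675, and put on the log2 scale as log2(deposited value + 1). No detection calls were used, and RMA compresses differences among dim probe sets. Of 45101 probe sets, 64 array controls were left out. Of the rest, 34945 had 1 symbol in the platform annotation, 932 several and 9160 none, and only those with 1 symbol named a gene. limma 3.58.1 in R 4.3.3 fitted 1 coefficient per line to all 12 arrays (lmFit, contrasts.fit and eBayes, two-sided, Benjamini-Hochberg over 45037 probe sets). The number of arrays limits the precision. The script was tested on simulated data.

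The members and lists were chosen with earlier results of these data known. All members are named, with the 3 most correlated genes for members whose line means span at least 1 log2 unit, and called genes from the 4 largest per list and comparison. Genes below these are in the counts, except that Unc93b1 is named as the carrier of the endosomal receptors and Icam1 for its rise in B117H. A probe set was dim where all 4 line means lay under the median of probe-set means, 6.95 log2. Deviations of same-letter arrays from their line means correlated at 0.36 to 0.587 between B140H and B140P and 0.349 to 0.532 between B140H and B117H. Between B140P and B117P they correlated at 0.131 to 0.499. Between B117H and B117P the values were 0.555 for A, 0.0278 for B and 0.392 for C. With a cut at 0.1, the letters were read as pairing all but the last, which fell short on letter B alone. Letters that pair the other lines would pair B117H with B117P as well, so the cut cannot set that pair apart. No label states a pairing, so this reading is not firm. Promoter sequences are RefSeq's for GRCm38.p6. The alternatives tried were other pseudocounts, normalizations, variance models, probe sets per gene and filters, the letter as a block, and arrays left out.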

Additional observations from a re-analysis of the deposited data

Results flagged for a closer look

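Tlr1 and Tlr2 stood out because their changes with resistance differed between the lineages in the test of the difference itself. The change of Tlr1 in B140H minus its change in B117H was 1.02 log2 (limma adjusted p 0.00529), and all 3 arrays of B140H lay above those of B140P while all 3 of B117H lay below those of B117P. The same difference for Tlr2 was 0.58 (adjusted p 0.00991), with the same separation of arrays in both pairs. Within B140H alone neither change was called. The array separations restate the values that were tested. The Tlr1 probe set is dim, and its lowest B140H array, at 24.7, lay just above the highest B140P array, at 24.5. Without all A or all B arrays limma called neither difference (adjusted p 0.117 and 0.107 for Tlr1, 0.124 and 0.114 for Tlr2).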

How the results depend on the processing

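Under 26 alternatives, 374 of 433 recomputed values of called members stayed called, 59 were lost and 0 changed sign, while 24 of 842 uncalled values became called and 11 changed sign. Cd14, Tlr2, Tlr4 and Tlr7 were called between the lineages under each alternative that measured them, 25 for Tlr4. Between B117H and B117P, 4 members were called, and 0 to 4 on leaving out single arrays, 2 with the arrays of this pair alone, and 1, 0 and 1 without all A, B or C arrays, which leaves 2 arrays per line. Between B140H and B140P none was called, and 0 to 1 on leaving out single arrays, 1 with the letter as a replicate block and 1 with each gene's probe sets averaged, both Tlr13. The block called 10% of all genes and the averaged probe sets 7.87%, against 6.56% in the full fit. The difference between the changes, called for 2, was called for 4 with probe sets averaged per gene, where 12% of all genes were called, against 10.4% in the full fit. It was called for 0, 0 and 1 without all A, B or C arrays. With the replicate block, 4 members were called between B117H and B117P, 3 in the difference, 5 between B140P and B117P and 7 between B140H and B117H. In the same order, the block called 13.1%, 15.1%, 28.2% and 32.1% of all genes, against 9.41%, 10.4%, 23.8% and 27% in the full fit. Tlr1 was called between B140H and B117H in 8 of 25 alternatives and Tlr13 in 17 of 25. Over all genes, B140H against B140P gave 1194 calls, but 1827 with the block, 682 with its own arrays alone, 752, 746 and 763 without B140P array A, B or C, and 489, 354 and 378 without all A, B or C arrays. In the same order, the last 3 gave 1020, 810 and 588 calls for B117H against B117P (1712 in the full fit) and 904, 672 and 575 for the difference (1896). Without all C arrays, B140P against B117P gave 2698 calls (4333) and B140H against B117H 3130 (4911). The causes were not tested. For dim probe sets such as Tlr1 and Tlr13, signal near background limits what can be read.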

Other observations

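Among genes that Toll-like receptor signalling induces, Il12a, a subunit of interleukin 12, and Icam1, an adhesion molecule gene, changed in opposite directions with resistance in the 2 lineages. Il12a was lower in B140H than in B140P by -0.78 (limma adjusted p 0.00745) and higher in B117H than in B117P by 0.58 (0.0285), and the changes differed by -1.36 (0.00132). Icam1 was lower in B140H by -0.72 (0.00449) and higher in B117H by 0.46 (0.0447), and the changes differed by -1.17 (0.00121). Both differences between the changes were called under every alternative that measured them. The falls in B140H held on leaving out any single array. Without all A or all C arrays Il12a lost that call (limma adjusted p 0.0725 and 0.11), and Icam1 without all A or all B arrays (0.0615 and 0.129). The rise of Il12a in B117H lost its call without B117H array B (0.123), B117H array C (0.0779), B117P array B (0.127) or B117P array C (0.0559). The rise of Icam1 in B117H, at an adjusted p of 0.0447, was not followed under the alternatives.

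Ptgs2 differed by 2.30 between the changes (limma adjusted p 0.00255), at 0.23 in B140H (not called) and -2.07 in B117H. Without all B arrays this difference was 1.60 and lost its call (limma adjusted p 0.064). The log2 difference of Ptgs2 between B140P and B117P was -4.90. Whether its level in the B140 lines lay near background, where a fall in B140H could not show, was not examined.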
